A study of Homo sapiens with 12 samples.

Results

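Solute carriers are membrane proteins that move small molecules (amino acids, sugars, vitamins, nucleosides, metal and other ions) across the plasma membrane and the membranes of lysosomes, mitochondria and the secretory pathway. They are named SLC, a subfamily number, a letter and a member number, so the subfamily number groups carriers of related sequence. The genes described here are those whose identifiers start with SLC and a digit in 2 deposited tables of genes that responded to lipopolysaccharide (LPS), without SLC2A3 and SLC2A6. That rule found 60 of the 3281 listed genes. Of the 60, 57 encode carriers of 32 subfamilies. The other 3 are SLC9A3R1 and SLC9A3R2, which encode the scaffold proteins NHERF1 and NHERF2, and SLC22A18AS, an antisense partner of a carrier gene. GENCODE release 29 has 375 protein-coding genes with such names, so most carrier genes are in neither table and were not analysed here.

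The cells were THP-1, a human monocytic leukaemia line, either wild type or with an S80A form of NFKB1, in which serine 80 of the p50 subunit of NF-kB is replaced by alanine. All cells received the phorbol ester PMA at 25 ng/ml for 72 hr, which makes the line macrophage-like, and then rested for 4 days. They were collected at 0 hr, without LPS, or after 3 hr of LPS at 10 ng/ml, which gives 4 groups of 3 libraries. The labels state neither how the edited line was made, nor whether it is a single clone, nor whether replicates are separate cultures, so the p-values measure the spread between these libraries and genotype cannot be told apart from the history of the edited line.

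NF-kB dimers bind kappa B sites in DNA, and p50 can act as an activating partner of RELA or, as a homodimer without an activation domain, as a repressor. In macrophages, LPS is known to change the import of arginine, cystine and leucine, the handling of iron and zinc, and the proton and solute exchange of lysosomes. Carriers of the SLC7 and SLC43 subfamilies serve amino acid exchange at the plasma membrane, SLC39 and SLC30 proteins bring zinc into and take it out of the cytosol, and SLC17, SLC29, SLC36 and SLC38 include lysosomal exporters.

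The start regions of SLC30A1 and SLC9A8 are shown because SLC30A1 carries a match to the element of the zinc sensor MTF1, and SLC9A8 carries matches to AP-1 and kappa B letters. Both are the 250 bases before the RefSeq start on GRCh38.p14, written 5′ to 3′ on the gene's strand. SLC30A1, the zinc exporter of the plasma membrane, lies at chr1:211579162-211579411 on the minus strand, with the match to the loose metal response element TGCNCNC, on its reverse strand, in capitals. SLC9A8, an endosomal and Golgi sodium-proton exchanger, lies at chr20:49812578-49812827 on the plus strand, with the match to AP-1 (TGANTCA) and 2 matches to loose kappa B letters (GGG, any 5 bases, CC, on either strand) in capitals.
SLC30A1: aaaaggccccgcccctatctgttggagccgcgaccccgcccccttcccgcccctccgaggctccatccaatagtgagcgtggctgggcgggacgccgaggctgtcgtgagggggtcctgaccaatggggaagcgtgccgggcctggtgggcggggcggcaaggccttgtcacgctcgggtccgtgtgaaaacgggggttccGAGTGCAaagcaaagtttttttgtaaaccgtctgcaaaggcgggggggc
SLC9A8: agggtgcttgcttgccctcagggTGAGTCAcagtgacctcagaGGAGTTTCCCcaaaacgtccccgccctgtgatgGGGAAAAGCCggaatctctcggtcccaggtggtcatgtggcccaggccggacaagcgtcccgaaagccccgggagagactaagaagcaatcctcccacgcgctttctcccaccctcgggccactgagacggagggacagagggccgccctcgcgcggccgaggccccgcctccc

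RefSeq promoters, each 250 bases before to 50 bases after a start, were found for 42 of the 60 members, 69 promoters in all. Loose kappa B letters were in 71.0% of these and in 58.7% of all 35116 promoters of the table. The stricter kappa B letters (GGGA, any 2 bases, TTCC) were in 0 of the 69 and in 1.61% of all. AP-1 letters were in 10.1% against 7.71% of all, those of the interferon-stimulated response element (GAAA, any 2 bases, GAAA) in 2.90% against 3.57%, TGCNCNC in 62.3% against 55.9%, and TGATGCAA (amino acid response element) in 1.45% against 0.866%. The loose patterns match by chance in most start regions, both strands were searched, and a match is a description of the letters and not a site.

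The 12 libraries held 1924562 to 5789918 reads on listed genes, of which 42242 to 71761 were on the members. The members took 2.02% to 2.36% of listed reads at 0 hr and 1.19% to 1.35% at 3 hr. Values below are scaled reads, that is, the whole reads of a library over its size factor. S80A replicate 1 stood nearer to wild type than the other S80A libraries at both times, at 16.7 and 16.9 on the second principal component of all listed genes, where the others lay at 32.7 to 46.7, so results on the response are also given without it. Of macrophage markers, 3 of 12 were listed (CD14, CD163 and MERTK), and their summed scaled reads were 4530 to 6675 in wild-type and 5115 to 9884 in S80A cells at 0 hr, and 1782 to 2553 and 2456 to 3018 at 3 hr. MERTK was higher in S80A cells at 0 hr (log2 difference 1.22 ± 0.17 (SE), adjusted p = 0.00814) and at 3 hr (2.63 ± 0.21 (SE), adjusted p = 0.000785). CD163 had a lower mean there, which did not pass with limma at 0 hr (-1.11 ± 0.32 (SE), adjusted p = 0.0509) or 3 hr (-0.53 ± 0.27 (SE), adjusted p = 0.156) and passed with TMM (adjusted p = 0.00435 and 0.0372). For CD14 the difference did not pass at either time (adjusted p = 0.305 and 0.0721). Of undifferentiated myeloid markers 2 of 8 were listed, with sums of 14.99 to 65.15 in all 12 libraries, and of markers of other cell types 1 of 12 (CD79B), at 4.70 to 45.8. The part of any shift in cell state in the results below was not tested.

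The authors' deposited tables list 16 members as rising and 25 as falling with LPS in wild-type cells, and 28 as rising and 16 as falling in S80A cells. Of all 3281 listed genes, 43.9% rise and 27.2% fall in the wild-type table, and 46.2% rise and 30.2% fall in the S80A table. Each member was chosen from these calls, so the counts are a description and nothing is read from them. A set of 16 members rises in both tables (31.9% of all listed genes do) and 9 fall in both (15.5%). A further 16 fall in the wild-type table alone (11.7%), 12 rise in the S80A table alone (14.3%), 7 fall in the S80A table alone (14.5%), and 0 rise in the wild-type table alone (11.9%). No member has opposite directions in the 2 tables. All 16 that rise in the wild-type table rise in the S80A table.

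**Figure D1:**
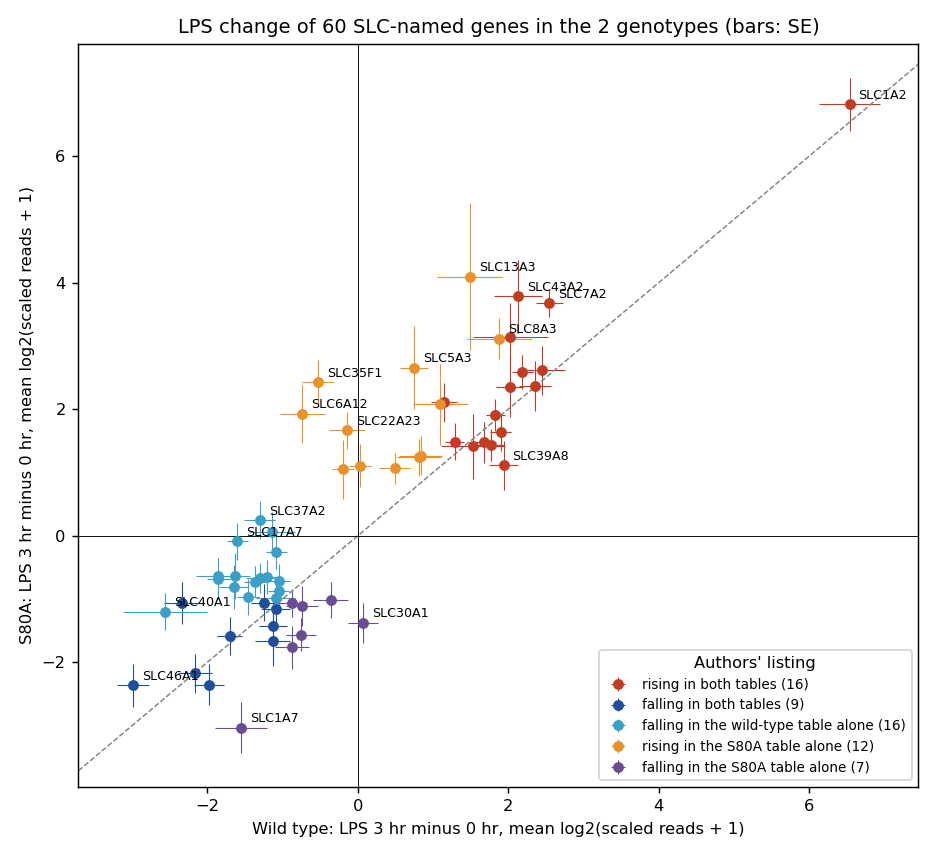
LPS change of the 60 SLC-named genes in wild-type cells (x axis) and S80A cells (y axis), each the difference of the mean log2(scaled reads + 1) of 3 libraries at 3 hr and 3 at 0 hr, with bars of 1 SE from limma and colours for the authors' listing. The dashed line marks equal change in both genotypes. 43 of the 60 points lie above it, SLC1A2 has the largest rise in both genotypes, and SLC30A1, listed as falling in the S80A table alone, lies below it.

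Between genotypes, limma on log2(scaled reads + 1) called 15 members higher and 8 lower in S80A cells at 0 hr (20.1% and 10.6% of all 3281 listed genes were called higher and lower, 30.7% in all). Members' shares were 25% higher and 13.3% lower. At 3 hr, 19 members were higher and 6 lower (29.2% and 17.7% of all, 47% together). The listing rests on the same libraries, so it also favours some differences at 3 hr. Of the 19 higher, 9 are listed as falling in the wild-type table alone and 6 as rising in the S80A table alone. Of the 6 lower, 5 are listed as falling in the S80A table alone. The LPS response itself, that is the change from 0 to 3 hr in S80A cells minus the change in wild-type cells, differed for 7 members, with a positive difference in 6 and a negative one in 1 (7.19% and 6.95% of all, 14.1% together). The median response difference over the 60 members was 0.43 on the log2 scale, beside 0.00039 over all listed genes, and 43 of 60 members had a positive difference. Genes listed in the S80A table alone as rising, or in the wild-type table alone as falling, were selected in a way that favours a positive difference, and these make up 28 of the 60. Among the 16 members rising in both tables the median difference was 0.19, and among the 9 falling in both it was -0.0095.

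The scaling matters for the split at a single time. With edgeR's TMM factors, estimated over the listed genes, the median difference of all listed genes moved from 0.19 to 0.00 at 0 hr and from 0.19 to 0.01 at 3 hr. The members then split into 7 higher and 12 lower at 0 hr (16.5% and 16.1% of all) and 18 higher and 10 lower at 3 hr (25.7% and 23.4%). The response difference was called positive for 7 and negative for 1 with TMM (6.58% and 6.46%). At 0 hr, the calls of SLC7A7, SLC9A3R2, SLC11A2, SLC17A5, SLC20A2, SLC22A18AS, SLC22A23, SLC25A20 and SLC36A1 as higher did not pass with TMM (adjusted p = 0.0577 to 0.452), and SLC7A5, SLC22A5, SLC25A28 and SLC39A8 passed as lower and SLC41A2 as higher. When a library was left out at 0 hr, the count of 23 became 10, 6 and 4 without wild-type replicate 1, 2 and 3 (18.8%, 16.1% and 15.1% of all listed genes were then called) and 24, 5 and 17 without S80A replicate 1, 2 and 3 (36.6%, 15.8% and 26.9%). SLC4A8, SLC7A8, SLC17A7 and SLC23A2 were called at 0 hr in each of the 14 alternatives run. With the replicate number as a block at 0 hr, SLC1A1, SLC7A7, SLC9A3R1, SLC11A2, SLC22A23 and SLC25A20 did not pass (adjusted p = 0.073, 0.0525, 0.0505, 0.0881, 0.0818 and 0.0884), and SLC24A4, SLC41A2 and SLC43A2 did (adjusted p = 0.0436, 0.0168 and 0.0388). At 3 hr, 21 of the 25 calls passed in every alternative run, and the other 4 were SLC1A7, SLC38A6, SLC43A3 and SLC45A3.

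Amino acid carriers formed the largest group, with 16 members of the SLC1, SLC6, SLC7, SLC36, SLC38 and SLC43 subfamilies. The authors' tables list 6 as rising and 6 as falling in wild-type cells, and 9 as rising and 1 as falling in S80A cells. No amino acid carrier is listed as falling in both. Between genotypes at 3 hr, 7 of the 16 were higher and 1 lower in S80A cells (29.2% and 17.7% of all listed genes), or 6 and 2 with TMM. Of the 7 called higher with limma, all but SLC43A3 are listed in 1 table alone, a selection that favours a difference at 3 hr. At 0 hr 4 were higher and 3 lower (20.1% and 10.6% of all), or 2 and 4 with TMM. The response difference was positive for 14 of the 16, with a median of 0.84 beside 0.00039 over all listed genes. It was called for SLC6A12 and SLC7A2 (7.19% of all listed genes were called positive). SLC1A1, SLC1A3, SLC6A12, SLC7A1, SLC7A7, SLC7A8, SLC36A1, SLC38A6 and SLC38A7 are listed in 1 table alone, in a direction that favours a positive difference. Nothing is therefore read from the count of positive differences.

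Cationic amino acids such as arginine enter through SLC7A1 (CAT1) and SLC7A2 (CAT2), and the latter is the inducible carrier that feeds arginine to nitric oxide synthase and arginase in macrophages. SLC7A2, at chromosome 8, 17497088 to 17570573, plus strand on GRCh38, had 27.7, 41.0 and 31.5 scaled reads at 0 hr and 183, 215 and 196 at 3 hr in wild-type cells, and 16.9, 17.8 and 19.9 at 0 hr and 229.9, 240.4 and 265 at 3 hr in S80A cells. It rose in every library of both genotypes, 5.93-fold in wild-type and 13.4-fold in S80A cells by the group means. All 3 S80A libraries were below all wild-type libraries at 0 hr (log2 difference -0.82 ± 0.18 (SE), adjusted p = 0.023) and above them at 3 hr, where the difference did not pass (0.31 ± 0.18 (SE), adjusted p = 0.213). The responses of the genotypes differed by 1.13 ± 0.26 (SE), adjusted p = 0.0182. The 0 hr difference did not pass with DESeq2 (adjusted p = 0.088). SLC7A1 had 2068, 3448 and 2829.7 scaled reads at 0 hr and 3433, 6502 and 4964 at 3 hr in wild-type cells and 1339.6, 1066 and 1012 at 0 hr and 3642, 2391 and 2189 at 3 hr in S80A cells. Every S80A library was lower than every wild-type library at 0 hr (log2 difference -1.27 ± 0.23 (SE), adjusted p = 0.0149), and the groups overlapped at 3 hr (-0.85 ± 0.32 (SE), adjusted p = 0.0659), where the difference passed with TMM (adjusted p = 0.0144) and DESeq2 (adjusted p = 0.0225). Of genes that use arginine (ARG1, ARG2, NOS2, ASS1, ASL and ODC1), 0 of 6 were in either table.

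Cystine enters through SLC7A11 (xCT), which exchanges it for glutamate and supplies cysteine for glutathione. SLC7A11 had 276, 473 and 500.1 scaled reads at 0 hr and 776, 2620.2 and 2194 at 3 hr in wild-type cells, and 148, 199 and 621 at 0 hr and 2850.3, 1859.9 and 2465 at 3 hr in S80A cells. The rise with LPS was listed in both tables. Libraries of a group lay far apart, with wild-type replicate 1 lowest at both times, and the genotypes overlapped at both times (adjusted p = 0.464 at 0 hr and 0.401 at 3 hr). Of 5 genes of glutathione synthesis and its control, 4 were listed. GCLC, the catalytic subunit of the first enzyme, fell in both tables, and GCLM, its modifier subunit, NFE2L2, the transcription factor NRF2, and, in the S80A table alone, TXNRD1 rose. TXNRD1, a thioredoxin reductase, and NFE2L2 were higher in S80A cells at 3 hr (log2 differences 1.19 ± 0.23 (SE), adjusted p = 0.00681, and 0.77 ± 0.21 (SE), adjusted p = 0.0225).

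Large neutral amino acids such as leucine are exchanged by SLC7A5 (LAT1) and SLC7A8 (LAT2) and leave by facilitated diffusion through SLC43A2 (LAT4). SLC43A2 had 1477, 623 and 776 scaled reads at 0 hr and 4327, 3791 and 3629 at 3 hr in wild-type cells, and 785, 243 and 190.0 at 0 hr and 6673, 4946 and 2906 at 3 hr in S80A cells. It rose 4.08-fold and 11.9-fold by the group means, with the 0 hr and 3 hr libraries apart in both genotypes. In each genotype, replicate 1 was the highest library at 0 hr and at 3 hr. Its response difference did not pass (1.66 ± 0.72 (SE), adjusted p = 0.138), and did with the replicate block (adjusted p = 0.0403) and without S80A replicate 1 at both times (adjusted p = 0.0228). SLC7A5 rose in both tables, from 3456 ± 1602 (SD, n = 3) to 9678 ± 3618 scaled reads in wild-type and from 1735 ± 172 to 5574 ± 4165 in S80A cells. Its genotype difference did not pass with limma (adjusted p = 0.13 at 0 hr and 0.181 at 3 hr), and at 0 hr it passed as lower in S80A cells with TMM and DESeq2 (adjusted p = 0.0162 and 0.0117). At 3 hr it passed without S80A replicate 1 (adjusted p = 0.0204).

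SLC7A8 went the other way. It had 1788, 2199.8 and 2132 scaled reads at 0 hr and 517, 541 and 636 at 3 hr in wild-type cells, and 3604, 4762 and 3996 at 0 hr and 1694, 2978 and 3349 at 3 hr in S80A cells. The fall is listed for wild-type cells, 3.61-fold by the group means. S80A libraries were above wild-type libraries at both times without overlap, 2.02-fold at 0 hr (log2 difference 1.01 ± 0.16 (SE), adjusted p = 0.0105) and 4.74-fold at 3 hr (2.19 ± 0.30 (SE), adjusted p = 0.00207). The response difference of 1.18 ± 0.36 (SE), adjusted p = 0.0513 was just short of the threshold and passed with TMM, with DESeq2, with the replicate block and without S80A replicate 1. SLC7A7 (y+LAT1), which exchanges cationic for neutral amino acids, had 2129.6, 2121 and 1947 scaled reads at 0 hr and 1117, 904 and 915 at 3 hr in wild-type cells, and 4560.5, 3742 and 2642 at 0 hr and 2989, 3067 and 2907 at 3 hr in S80A cells. It is also listed as falling in wild-type cells alone, and S80A libraries were 3.05-fold higher at 3 hr (log2 difference 1.62 ± 0.19 (SE), adjusted p = 0.00154), with no overlap, and 1.77-fold higher at 0 hr (0.79 ± 0.22 (SE), adjusted p = 0.0482). Its response difference was 0.83 ± 0.30 (SE), adjusted p = 0.0847, and passed with DESeq2 (adjusted p = 0.038).

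**Figure D2:**
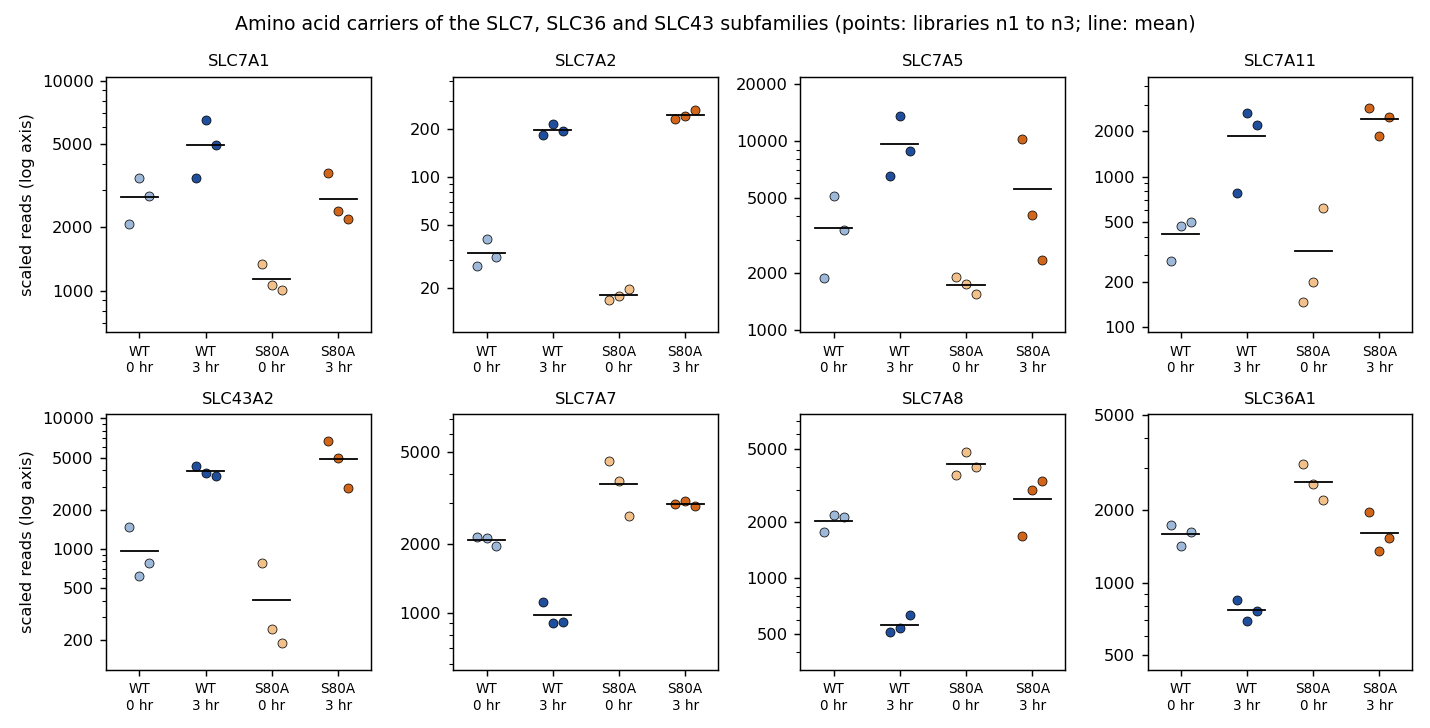
Scaled reads (log axis) of 8 amino acid carriers in the 12 libraries, with points for the 3 libraries of each group in the order of their numbers and a line at each group mean. SLC7A1, SLC7A2, SLC7A5, SLC7A11 and SLC43A2 have higher means at 3 hr than at 0 hr in both genotypes, and SLC7A7, SLC7A8 and SLC36A1 lower means, with the S80A libraries of these 3 above the wild-type libraries of the same time.

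Glutamate carriers of the SLC1 subfamily differed among themselves. SLC1A2 (EAAT2) had 1.73, 0 and 0 scaled reads at 0 hr and 146, 131 and 113 at 3 hr in wild-type cells, and 0, 1.55 and 0 at 0 hr and 198, 141 and 129 at 3 hr in S80A cells. The 3 libraries of each genotype held 2 reads together at 0 hr, and 356 and 408 at 3 hr, ratios of 235.6 (95% interval 64.73 to 1953) and 255.2 (70.18 to 2114) that cover counting error only. It had the largest rise of all members in both genotypes, and the genotypes overlapped at 3 hr. SLC1A3 (EAAT1) is listed as rising in S80A cells alone, from 881 ± 278 (SD, n = 3) to 2058 ± 261 scaled reads, beside 997 ± 328 and 1727 ± 264 in wild-type cells, and the response difference did not pass (0.43 ± 0.43 (SE), adjusted p = 0.507). SLC1A1 (EAAT3) had 51.1, 57.1 and 58.9 scaled reads at 0 hr and 12.9, 20.8 and 19.3 at 3 hr in wild-type cells, and 40.8, 30.2 and 26.2 at 0 hr and 24.7, 27.6 and 12.0 at 3 hr in S80A cells. It fell 3.16-fold in wild-type cells, all S80A libraries were lower at 0 hr (log2 difference -0.78 ± 0.19 (SE), adjusted p = 0.0318), and the genotypes overlapped at 3 hr. SLC1A7 (EAAT5), a glutamate carrier with a large chloride current, had 12.1, 16.1 and 8.87 scaled reads at 0 hr and 5.87, 2.08 and 3.21 at 3 hr in wild-type cells, and 13.9, 8.53 and 7.35 at 0 hr and 0, 0 and 1.20 at 3 hr in S80A cells. Its 32 reads at 0 hr and 1 read at 3 hr in S80A cells give a ratio of 25.6 (95% interval 4.27 to 1042), and the 10 reads of wild-type and 1 of S80A cells at 3 hr a ratio of 9.44 (1.34 to 409.8). The genotype difference at 3 hr passed with limma (log2 difference -1.78 ± 0.42 (SE), adjusted p = 0.0143) and did not with DESeq2 (adjusted p = 0.0991).

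SLC6A12 (BGT1) takes up the osmolyte betaine and GABA, and lies at chromosome 12, 190077 to 214570, minus strand. It had 40.7, 90.1 and 72.6 scaled reads at 0 hr and 42.3, 38.4 and 34.3 at 3 hr in wild-type cells, and 44.8, 109 and 45.1 at 0 hr and 155, 358 and 228 at 3 hr in S80A cells. Genotypes overlapped at 0 hr, and at 3 hr every S80A library was above every wild-type library, 6.44-fold by the means (log2 difference 2.58 ± 0.32 (SE), adjusted p = 0.00179). The rise is listed in the S80A table alone, and the response difference was 2.66 ± 0.59 (SE), adjusted p = 0.0143. SLC6A12 stayed past the threshold in each alternative that tested it.

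SLC36A1, SLC38A6 and SLC38A7 are listed as falling in wild-type cells alone, and of these SLC36A1 and SLC38A7 are known from lysosomal membranes. SLC38A7 (SNAT7), a glutamine exporter, had 531, 745 and 694 scaled reads at 0 hr and 174, 236 and 213 at 3 hr in wild-type cells, and 1093, 1423 and 1018 at 0 hr and 427, 774 and 891 at 3 hr in S80A cells. S80A libraries were above the wild-type ones without overlap at 0 hr (log2 difference 0.84 ± 0.20 (SE), adjusted p = 0.0309) and at 3 hr (1.69 ± 0.32 (SE), adjusted p = 0.00585). SLC36A1 (PAT1), a proton-coupled carrier of small amino acids, fell from 1597 ± 166 (SD, n = 3) to 770.1 ± 77.4 in wild-type cells. S80A cells had 2637 ± 463 and 1616 ± 314, higher at both times (adjusted p = 0.0316 and 0.00842). SLC38A6 (SNAT6) had 108 ± 36.2 scaled reads in wild-type libraries at 3 hr and 201 ± 40.8 in S80A libraries (log2 difference 0.92 ± 0.30 (SE), adjusted p = 0.0407), a call that did not pass with TMM (adjusted p = 0.0812). SLC43A3, grouped here by its number but known as a carrier of purine nucleobases, rose in both genotypes, from 3666 ± 168 to 8961 ± 328 and from 5315 ± 1471 to 14566 ± 1732, and was higher in S80A cells at 3 hr (log2 difference 0.69 ± 0.19 (SE), adjusted p = 0.0234). This call did not pass in 5 of the 6 fits that left out a library (adjusted p = 0.0543 to 0.0878).

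Metal ion carriers numbered 6, of which 4 rose and 1 fell in each table. SLC11A2, SLC31A2, SLC39A8 and SLC41A2 rose in both, SLC40A1 is listed as falling in wild-type cells alone and SLC30A1 in S80A cells alone. The means of SLC40A1 also fell in S80A cells, 2.26-fold.

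The 2 zinc carriers listed, SLC39A8 and SLC30A1, were both lower in S80A cells at 3 hr. SLC39A8 (ZIP8), which brings zinc and manganese into the cytosol and is known as an NF-kB target that limits inflammation in macrophages, had 1067, 747 and 845 scaled reads at 0 hr and 3642, 2896 and 3619.7 at 3 hr in wild-type cells, and 549.8, 422 and 652 at 0 hr and 1990.3, 853 and 912 at 3 hr in S80A cells. It rose 3.82-fold and 2.31-fold, and all S80A libraries were below all wild-type libraries at both times, 2.70-fold at 3 hr (log2 difference -1.54 ± 0.36 (SE), adjusted p = 0.0126), while the 0 hr difference did not pass with limma (-0.72 ± 0.22 (SE), adjusted p = 0.0623) and passed with TMM (adjusted p = 0.0137). S80A replicate 1 was the highest S80A library at 3 hr. SLC39A8 and NFKB1 are neighbours on chromosome 4, where the upper end of SLC39A8 (102251041 to 102431258, minus strand) is 70.1 kb from the start of NFKB1 (102501329 to 102617302, plus strand).

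SLC30A1 (ZnT1), which takes zinc out of the cell and whose start region is printed above, lies at chromosome 1, 211571568 to 211578742, minus strand. It had 558, 582 and 628 scaled reads at 0 hr and 467, 688 and 734 at 3 hr in wild-type cells, and 805, 506 and 537 at 0 hr and 312, 178 and 225 at 3 hr in S80A cells. Wild-type libraries overlapped between 0 and 3 hr, whereas in S80A cells all 3 hr libraries were below all 0 hr libraries, 2.58-fold by the means. The genotypes overlapped at 0 hr and were apart at 3 hr (log2 difference -1.41 ± 0.29 (SE), adjusted p = 0.00837). The response difference was -1.44 ± 0.38 (SE), adjusted p = 0.0304, and SLC30A1 was the only member called with a negative one. That call did not pass in 7 of the 12 fits that left out a library, those without wild-type replicate 1, 2 or 3 at 0 hr, wild-type replicate 2 or 3 at 3 hr, or S80A replicate 2 or 3 at 3 hr (adjusted p = 0.056 to 0.0752), and passed without S80A replicate 1 at both times (adjusted p = 0.0116).

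Of 9 genes of zinc binding and sensing, 5 were listed. All 5 were called lower in S80A cells at 3 hr (17.7% of all listed genes were) and 3 of them at 0 hr (10.6% of all). MT2A, a metallothionein that binds zinc, had 269, 257 and 227 scaled reads at 0 hr and 3202, 4062 and 4143 at 3 hr in wild-type cells, and 60.8, 51.2 and 34.6 at 0 hr and 1204, 2243 and 1478 at 3 hr in S80A cells, with no overlap at either time (log2 difference -2.37 ± 0.23 (SE), adjusted p = 0.00373 at 0 hr and -1.25 ± 0.28 (SE), adjusted p = 0.0113 at 3 hr). MT1E was lower by more at both times, with means of 338 ± 30.5 (SD, n = 3) and 21.96 ± 20.7 at 0 hr and 981 ± 89.4 and 89.2 ± 70.4 at 3 hr. MT1X and MT1M were lower at 3 hr (adjusted p = 0.0019 and 0.0316). Metallothionein genes are near-identical copies, so the counting could have divided reads between them. MTF1, the zinc sensor that activates metallothionein genes and SLC30A1, rose in both tables and was lower in S80A cells at 3 hr (log2 difference -0.85 ± 0.28 (SE), adjusted p = 0.0421). None of the 5 had a response difference past the threshold (adjusted p = 0.0725 to 0.673 by limma, raw p under 0.05 for MT2A alone).

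**Figure D3:**
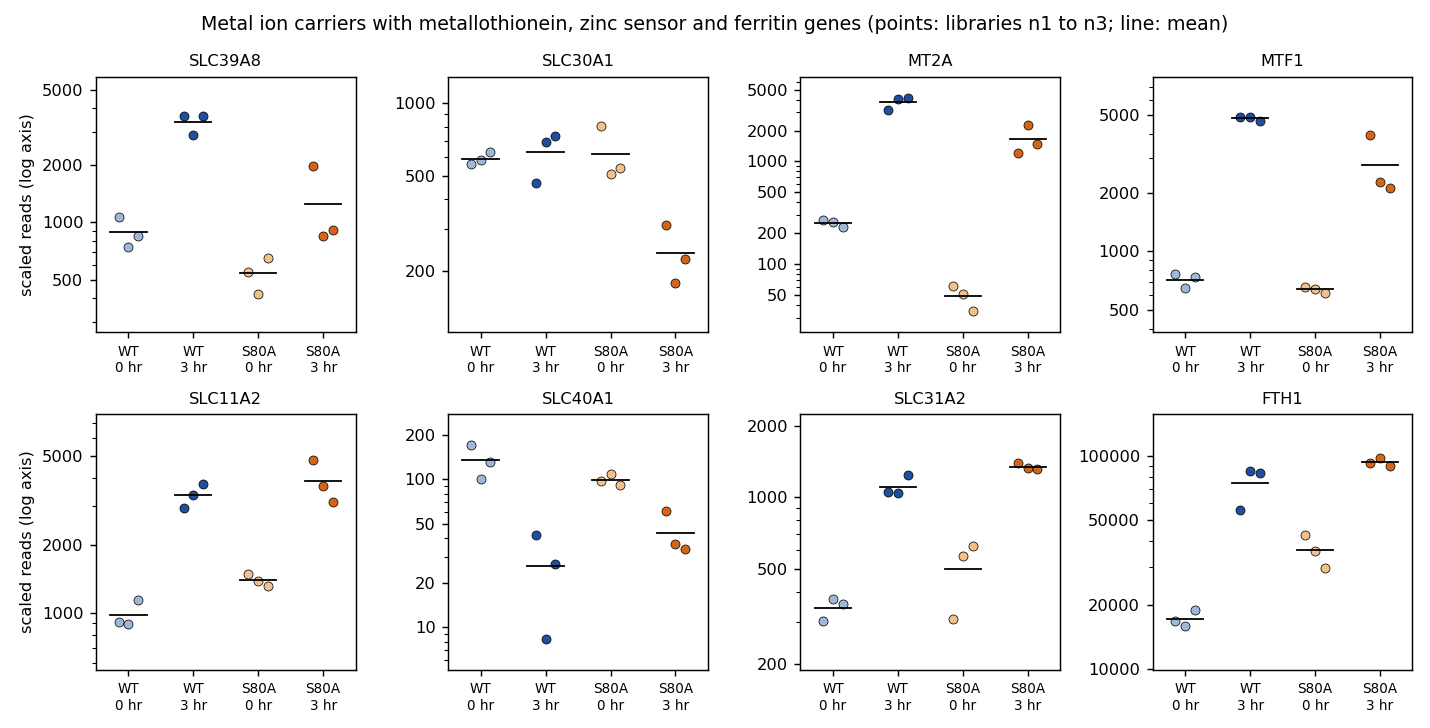
Scaled reads (log axis) of zinc genes (upper row), iron and copper carriers and the ferritin heavy chain gene FTH1 (lower row) in the 12 libraries, with points for the 3 libraries of each group in the order of their numbers and a line at each group mean. SLC30A1 lies at 178 to 312 in S80A cells at 3 hr and at 467 to 805 in the other 9 libraries, and SLC39A8, MT2A and MTF1 have lower means in S80A than in wild-type cells at 3 hr.

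Iron carriers moved in opposite directions. SLC11A2 (DMT1), which brings ferrous iron into the cytosol, rose from 982 ± 141 (SD, n = 3) to 3345 ± 420.2 scaled reads in wild-type and from 1398 ± 83.2 to 3861 ± 856 in S80A cells. SLC40A1 (ferroportin), the iron exporter, is listed as falling in wild-type cells, from 134 ± 35.5 to 25.8 ± 17.0, with 98.6 ± 8.42 and 43.6 ± 14.7 in S80A cells, and no genotype difference passed (adjusted p = 0.211 at 0 hr, 0.21 at 3 hr and 0.182 for the response). Of 9 other iron genes 3 were listed, and 3 were called higher in S80A cells at 0 hr (20.1% of all listed genes were) and 1 at 3 hr (29.2%). FTH1, the ferritin heavy chain that stores iron, rose in both tables and was higher in S80A cells at 0 hr (log2 difference 1.06 ± 0.17 (SE), adjusted p = 0.0107). Its difference at 3 hr did not pass (adjusted p = 0.247). HMOX1, which frees iron from haem, is listed as falling in wild-type cells alone. Its means fell from 3426 to 742 scaled reads in wild-type and from 6348 to 3258 in S80A cells. The response difference of HMOX1 did not pass with limma (adjusted p = 0.0993). HMOX1 was higher in S80A cells at 0 hr (0.90 ± 0.15 (SE), adjusted p = 0.0124) and at 3 hr (2.13 ± 0.40 (SE), adjusted p = 0.00593). STEAP4, a metalloreductase, rose in both tables and had 1.73, 0.804 and 0.807 scaled reads in wild-type and 4.98, 93.8 and 70.3 in S80A cells at 0 hr (log2 difference 4.05 ± 1.11 (SE), adjusted p = 0.0445). S80A replicate 1 was the lowest of the S80A libraries, above all wild-type ones, and the difference at 3 hr did not pass (adjusted p = 0.421). The response difference of STEAP4 did not pass with limma (-3.63 ± 1.18 (SE), adjusted p = 0.0622) and passed with TMM (-5.11, adjusted p = 0.0175).

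SLC41A2, a magnesium carrier, had 50.2, 80.4 and 113 scaled reads at 0 hr and 402, 389 and 490.3 at 3 hr in wild-type cells, and 140.4, 261 and 395 at 0 hr and 1534, 1507 and 1468 at 3 hr in S80A cells. It rose in both genotypes, 5.26-fold and 5.67-fold, and S80A libraries were above wild-type libraries at both times, 3.52-fold at 3 hr (log2 difference 1.82 ± 0.19 (SE), adjusted p = 0.00119). The difference at 0 hr did not pass with limma (1.65 ± 0.48 (SE), adjusted p = 0.0518) and passed with TMM (adjusted p = 0.0214). At 0 hr replicate 1 was the lowest library in both genotypes. SLC31A2 (CTR2), a copper carrier of intracellular vesicles, rose from 345 ± 37.4 (SD, n = 3) to 1110.0 ± 114 and from 501 ± 168 to 1341 ± 43.2, with no genotype difference past the threshold.

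Sugar and polyol carriers numbered 5. Wild-type cells have 4 listed as falling, and S80A cells 1 as rising and 2 as falling. SLC5A3 (SMIT1) takes up the osmolyte myo-inositol and shares with SLC6A12 a known regulation by osmotic stress. SLC5A3 had 288, 360.3 and 447 scaled reads at 0 hr and 600.2, 599 and 621 at 3 hr in wild-type cells, and 222, 983 and 1349 at 0 hr and 3236, 5370.4 and 4315 at 3 hr in S80A cells. S80A replicate 1 was below, and the other S80A libraries above, all wild-type libraries at 0 hr. At 3 hr all S80A libraries were above all wild-type libraries, 7.10-fold by the means (log2 difference 2.80 ± 0.24 (SE), adjusted p = 0.000796). The response difference did not pass (1.91 ± 0.75 (SE), adjusted p = 0.108) and passed without S80A replicate 1 at both times (adjusted p = 0.02).

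SLC37A2, which exchanges glucose 6-phosphate for phosphate across the endoplasmic reticulum membrane and is abundant in macrophages, lies at chromosome 11, 125063067 to 125090312, plus strand. It had 3173, 2609 and 2507 scaled reads at 0 hr and 1429, 921 and 1065 at 3 hr in wild-type cells, and 4749, 3216 and 2527 at 0 hr and 4462, 3765 and 3834 at 3 hr in S80A cells. It fell 2.43-fold in wild-type cells, whereas the 0 hr and 3 hr libraries of S80A cells overlapped. At 3 hr S80A cells were 3.53-fold higher (log2 difference 1.84 ± 0.23 (SE), adjusted p = 0.00179). The response difference was 1.54 ± 0.36 (SE), adjusted p = 0.0184, and without wild-type replicate 2 at 3 hr it did not pass (adjusted p = 0.0514).

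The SLC45 carriers, of a family that moves sugars with protons, fell in both tables. SLC45A3 had 212, 218 and 132 scaled reads at 0 hr and 88.1, 89.3 and 72.8 at 3 hr in wild-type cells, and 372, 745 and 537 at 0 hr and 109, 178 and 239 at 3 hr in S80A cells. S80A libraries were higher without overlap at 0 hr (log2 difference 1.53 ± 0.33 (SE), adjusted p = 0.0235) and 3 hr (1.00 ± 0.31 (SE), adjusted p = 0.0373), and the latter did not pass with TMM (adjusted p = 0.0564). SLC45A4 had 930.1, 835 and 705 scaled reads at 0 hr and 370.0, 309 and 352 at 3 hr in wild-type cells, and 781, 514 and 425 at 0 hr and 263, 285 and 247 at 3 hr in S80A cells. It fell 2.39-fold and 2.16-fold, and the genotype difference did not pass at 0 hr (adjusted p = 0.158) or 3 hr (0.145) with limma, and passed at 3 hr with TMM (adjusted p = 0.0384). SLC2A10 (GLUT10), a glucose transporter of the secretory pathway, is listed as falling in wild-type cells, from 75.5 ± 9.70 (SD, n = 3) to 35.9 ± 10.8, 2.10-fold. S80A cells had 77.4 ± 6.72 and 39.0 ± 4.65, a 1.98-fold fall, and the response difference did not pass with limma (adjusted p = 0.821).

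Sodium, proton, bicarbonate and chloride carriers numbered 6, with 3 rising and 1 falling in the wild-type table and 5 rising and 0 falling in the S80A table. SLC9A8 (NHE8), whose start region is printed above, had 427, 463 and 443 scaled reads at 0 hr and 1446, 1664 and 1640.2 at 3 hr in wild-type cells, and 397, 439.8 and 319 at 0 hr and 1645, 1440.1 and 1249 at 3 hr in S80A cells. Libraries of a group lay close together, the rise was 3.56-fold and 3.75-fold, and the genotypes overlapped at both times, with a response difference of 0.08 ± 0.26 (SE), adjusted p = 0.849. SLC12A7 (KCC4), which moves potassium and chloride out of the cell, had 317, 345 and 348 scaled reads at 0 hr and 1408, 1216 and 1155 at 3 hr in wild-type cells, and 395, 374 and 253 at 0 hr and 1383, 950.1 and 861 at 3 hr in S80A cells. It rose 3.74-fold and 3.12-fold, and the genotypes overlapped at both times.

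The 2 bicarbonate carriers of the SLC4 subfamily went in opposite directions. SLC4A8 (NDCBE), which exchanges sodium and bicarbonate for chloride, had 142, 138 and 135 scaled reads at 0 hr and 70.5, 57.1 and 52.5 at 3 hr in wild-type cells, and 391, 607 and 479.6 at 0 hr and 262, 319.8 and 346 at 3 hr in S80A cells. It is listed as falling in wild-type cells, 2.31-fold. S80A libraries were 3.56-fold higher at 0 hr (log2 difference 1.80 ± 0.18 (SE), adjusted p = 0.00401) and 5.16-fold at 3 hr (2.35 ± 0.22 (SE), adjusted p = 0.000909), with no overlap at either time. SLC4A5 (NBCe2), a sodium-bicarbonate cotransporter, had 217, 268 and 254 scaled reads at 0 hr and 456, 632 and 569.6 at 3 hr in wild-type cells, and 124, 95.4 and 149 at 0 hr and 683, 538 and 391 at 3 hr in S80A cells. It was lower in S80A cells at 0 hr (log2 difference -1.01 ± 0.20 (SE), adjusted p = 0.0179), rose 2.24-fold and 4.37-fold, and overlapped between genotypes at 3 hr. SLC4A5 lies on the strand opposite to MTHFD2, also listed, and the strand setting of the counting is not given in the sources used here.

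SLC8A3 (NCX3), a sodium-calcium exchanger, had 0 reads in all 6 libraries at 0 hr. It had 2.35, 6.23 and 1.07 scaled reads in wild-type and 8.97, 4.60 and 10.8 in S80A cells at 3 hr, 9 and 21 reads. Against the limit of 3 reads that a count of 0 over a group allows, the ratios were 3.97 in wild-type and 8.76 in S80A cells. The counting error of the 9 and 21 reads themselves is not covered, so these ratios are not lower bounds. SLC24A4 (NCKX4), which exchanges sodium for calcium and potassium, is listed as rising in S80A cells, from 21.9 ± 19.0 (SD, n = 3) to 87.6 ± 57.2, with 54.7 ± 21.0 and 119.5 ± 49.1 in wild-type cells, and replicate 1 was the highest library in each of the 4 groups.

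Nucleoside and vitamin carriers numbered 5, with 0 rising and 3 falling in the wild-type table and 1 rising and 3 falling in the S80A table. SLC23A2 (SVCT2), which takes up ascorbate with sodium, had 1173, 1185 and 1388 scaled reads at 0 hr and 987, 1079.6 and 1202 at 3 hr in wild-type cells, and 2803, 3676 and 3820.3 at 0 hr and 3384, 9512 and 10919 at 3 hr in S80A cells. S80A libraries were above wild-type libraries at both times, 2.75-fold at 0 hr (log2 difference 1.45 ± 0.17 (SE), adjusted p = 0.00483) and 7.29-fold at 3 hr (2.70 ± 0.45 (SE), adjusted p = 0.00379). At 3 hr S80A replicate 1 was the lowest S80A library by far. The response difference was 1.25 ± 0.52 (SE), adjusted p = 0.125, and without S80A replicate 1 at both times it passed (adjusted p = 0.00182), as it did with DESeq2 (adjusted p = 0.0296).

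Folate carriers are listed as falling. SLC19A1 (RFC1), which exchanges reduced folate for anions and also imports cyclic dinucleotides that activate STING, had 1003, 1025 and 731 scaled reads at 0 hr and 628, 416 and 465 at 3 hr in wild-type cells, and 572, 482 and 302 at 0 hr and 176, 109 and 109 at 3 hr in S80A cells. It is listed as falling in S80A cells, 3.44-fold, and S80A libraries were lower without overlap, 2.03-fold at 0 hr (log2 difference -1.06 ± 0.29 (SE), adjusted p = 0.044) and 3.83-fold at 3 hr (-1.94 ± 0.28 (SE), adjusted p = 0.00245). SLC46A1 (PCFT), which moves folate with protons, fell in both tables, from 205 ± 25.4 (SD, n = 3) to 25.3 ± 6.06 in wild-type and from 225 ± 69.0 to 42.6 ± 11.3 in S80A cells.

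SLC29A3 (ENT3), which exports nucleosides from lysosomes, had 264, 273 and 226 scaled reads at 0 hr and 70.5, 40.5 and 42.8 at 3 hr in wild-type cells, and 384, 372 and 242 at 0 hr and 108, 189.8 and 185 at 3 hr in S80A cells. It fell in both tables, 4.96-fold and 2.07-fold, and was higher in S80A cells at 3 hr (log2 difference 1.63 ± 0.33 (SE), adjusted p = 0.00744). Its response difference was 1.27 ± 0.42 (SE), adjusted p = 0.0657, and passed with DESeq2 (adjusted p = 0.0259). SLC46A3, a lysosomal carrier of the same subfamily as SLC46A1, had 193, 301 and 314 scaled reads at 0 hr and 57.6, 64.4 and 99.6 at 3 hr in wild-type cells, and 233, 176 and 226 at 0 hr and 184, 128 and 103 at 3 hr in S80A cells. It is listed as falling in wild-type cells alone, the genotypes overlapped at 0 hr and were apart at 3 hr, and neither the difference at 3 hr (0.90 ± 0.31 (SE), adjusted p = 0.0519) nor the response difference (1.22 ± 0.41 (SE), adjusted p = 0.0726) passed with limma. Both passed with DESeq2 (adjusted p = 0.0276 and 0.0292).

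Carriers of phosphate and organic anions numbered 3, with 2 falling in the wild-type table and 1 in the S80A table. SLC17A7 (VGLUT1), known for loading glutamate into synaptic vesicles, lies at chromosome 19, 49429401 to 49442360, minus strand. It had 269, 292 and 329 scaled reads at 0 hr and 89.3, 99.7 and 102 at 3 hr in wild-type cells, and 794, 998 and 788 at 0 hr and 584, 917 and 976 at 3 hr in S80A cells. It fell 3.06-fold in wild-type cells, and the 0 hr and 3 hr libraries of S80A cells overlapped. S80A libraries were 2.90-fold higher at 0 hr (log2 difference 1.53 ± 0.15 (SE), adjusted p = 0.0039) and 8.52-fold higher at 3 hr (3.04 ± 0.25 (SE), adjusted p = 0.000796). The response difference of 1.52 ± 0.31 (SE), adjusted p = 0.0109 passed in each alternative that tested it. SLC17A5 (sialin), which exports sialic acid from lysosomes, had 1912, 2045 and 2174 scaled reads at 0 hr and 713, 833 and 822 at 3 hr in wild-type cells, and 2590.5, 3010.2 and 3208 at 0 hr and 1496, 1998 and 1856 at 3 hr in S80A cells. It is listed as falling in wild-type cells, 2.59-fold by the group means, beside 1.65-fold in S80A cells. At 3 hr it was higher in S80A cells, with no overlap (log2 difference 1.17 ± 0.20 (SE), adjusted p = 0.00455). SLC20A2 (PiT2), a phosphate importer, is listed as falling in S80A cells, from 2288 ± 138 (SD, n = 3) to 1099 ± 34.4, and had 1349 ± 274 and 732 ± 136 in wild-type cells, lower at 0 hr (adjusted p = 0.0251).

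Organic ion carriers of the SLC22 subfamily numbered 3. SLC22A23, whose substrate is not settled, lies at chromosome 6, 3268962 to 3457022, minus strand. It had 26.8, 28.2 and 36.3 scaled reads at 0 hr and 37.6, 24.9 and 21.4 at 3 hr in wild-type cells, and 75.7, 72.1 and 45.1 at 0 hr and 186, 239 and 186 at 3 hr in S80A cells. Wild-type libraries overlapped between times, and S80A libraries were above them at 0 hr (log2 difference 1.03 ± 0.25 (SE), adjusted p = 0.0312) and, 7.28-fold, at 3 hr (2.85 ± 0.27 (SE), adjusted p = 0.000909). The responses differed by 1.82 ± 0.38 (SE), adjusted p = 0.0115. SLC22A5 (OCTN2), which takes up carnitine, is listed as falling in wild-type cells, from 143 ± 13.7 (SD, n = 3) to 51.2 ± 5.69. S80A cells had 98.5 ± 23.5 and 49.6 ± 8.78, a 1.99-fold fall, and the response difference did not pass with limma (adjusted p = 0.271). SLC22A15, a carrier of zwitterions such as ergothioneine, is listed as falling in S80A cells, from 468 ± 97.3 to 231 ± 48.9, with 485 ± 45.6 and 389 ± 118 in wild-type cells.

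The 2 carboxylate carriers rose. SLC16A9 (MCT9), of the monocarboxylate family, rose in both tables, from 22.4 ± 4.82 (SD, n = 3) to 118 ± 18.2 and from 17.7 ± 5.25 to 99.5 ± 46.3, with a response difference of 0.00 ± 0.47 (SE), adjusted p = 0.998. SLC13A3 (NaDC3), a sodium-dicarboxylate carrier, is listed as rising in S80A cells alone. Its S80A libraries at 3 hr held 4.49, 69.0 and 126 scaled reads and the wild-type ones 3.52, 8.30 and 10.7, so replicate 1 lay with the wild-type libraries and the other 2 S80A libraries above them. The difference at 3 hr did not pass with limma (2.21 ± 1.12 (SE), adjusted p = 0.147) and passed with edgeR and TMM (adjusted p = 0.0382), with DESeq2 (adjusted p = 0.00183) and without S80A replicate 1 at 3 hr (adjusted p = 0.0025).

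Mitochondrial carriers of the SLC25 subfamily numbered 7, with 1 rising and 3 falling in the wild-type table and 3 rising and 3 falling in the S80A table. The mitoferrins bring iron into mitochondria for haem and iron-sulphur clusters. SLC25A28 (mitoferrin-2) had 395, 453 and 408 scaled reads at 0 hr and 1715, 1992 and 2043 at 3 hr in wild-type cells, and 354, 369 and 275 at 0 hr and 2246, 2279 and 1533 at 3 hr in S80A cells. It rose 4.58-fold and 6.07-fold, and the genotypes overlapped at 3 hr. SLC25A37 (mitoferrin-1) had 489, 705 and 645 scaled reads at 0 hr and 701, 1009 and 877 at 3 hr in wild-type cells, and 341, 292 and 249 at 0 hr and 646, 667 and 538 at 3 hr in S80A cells. Its rise is listed in S80A cells alone, 2.10-fold, from a level that was lower at 0 hr than in wild-type cells (log2 difference -1.05 ± 0.20 (SE), adjusted p = 0.0162).

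SLC25A15 (ORC1), which exchanges ornithine for citrulline, had 385, 282 and 255 scaled reads at 0 hr and 199.7, 199 and 148 at 3 hr in wild-type cells, and 187, 112 and 147 at 0 hr and 88.6, 50.6 and 65.9 at 3 hr in S80A cells. S80A libraries were lower without overlap at 0 hr (log2 difference -1.05 ± 0.26 (SE), adjusted p = 0.0327) and 3 hr (-1.42 ± 0.27 (SE), adjusted p = 0.00595). SLC25A45, a less studied member, had 87.5, 82.8 and 71.0 scaled reads at 0 hr and 89.3, 83.0 and 73.9 at 3 hr in wild-type cells, and 103, 91.5 and 48.3 at 0 hr and 191, 175 and 140.3 at 3 hr in S80A cells. Genotypes overlapped at 0 hr and were apart at 3 hr (log2 difference 1.02 ± 0.21 (SE), adjusted p = 0.00782), and the response difference did not pass (1.08 ± 0.38 (SE), adjusted p = 0.0804) and did with the replicate block (adjusted p = 0.0307) and without S80A replicate 1 at both times (adjusted p = 0.0468). SLC25A20 (CACT), which brings acylcarnitines to beta-oxidation, is listed as falling in wild-type cells, from 444 ± 31.9 (SD, n = 3) to 215 ± 22.1. S80A cells had 587 ± 30.5 and 325 ± 67.5, a 1.80-fold fall. SLC25A42, a coenzyme A carrier, and SLC25A30 (KMCP1) fell in both tables, the first from 143 ± 19.2 to 31.5 ± 8.20 in wild-type and from 151 ± 24.7 to 33.3 ± 9.97 in S80A cells, the second from 338 ± 27.2 to 104 ± 15.9 and from 260.5 ± 92.6 to 83.3 ± 5.63. SLC25A30 overlaps the listed antisense gene TPT1-AS1, so their reads may not be told apart.

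The SLC35 family, known for nucleotide sugar carriers of the Golgi, had 4 members. SLC35F1, whose substrate is not settled, lies at chromosome 6, 117907526 to 118317676, plus strand. It had 12.1, 8.04 and 8.07 scaled reads at 0 hr and 5.87, 5.19 and 7.49 at 3 hr in wild-type cells, and 6.97, 3.10 and 7.35 at 0 hr and 28.03, 39.1 and 36.0 at 3 hr in S80A cells. At 0 hr S80A libraries were below wild-type libraries by a difference that did not pass (-0.66 ± 0.34 (SE), adjusted p = 0.189), and at 3 hr they were 5.56-fold above them (2.30 ± 0.23 (SE), adjusted p = 0.001). The response difference, 2.96 ± 0.41 (SE), adjusted p = 0.00211, had the smallest p of all members. Few reads stand behind it, 25 to 34 per library in S80A cells at 3 hr and 4 to 14 in the other 9 libraries, and it passed in each alternative that tested it. SLC35C1, which brings GDP-fucose into the Golgi, is listed as falling in wild-type cells, from 345 ± 35.2 (SD, n = 3) to 141 ± 30.2. S80A cells had 298 ± 24.0 and 188 ± 23.6, a 1.58-fold fall. SLC35F6 fell in both tables, from 841 ± 112 to 395 ± 69.1 and from 1202 ± 124 to 549 ± 133. SLC35G1 rose in both, from 22.5 ± 3.19 to 94.8 ± 13.2 and from 18.5 ± 10.6 to 97.1 ± 49.3.

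The 3 genes that are no carriers fell. SLC9A3R1 (NHERF1), which anchors carriers and receptors below the plasma membrane, had 359, 489 and 395 scaled reads at 0 hr and 199, 267 and 274 at 3 hr in wild-type cells, and 258, 294 and 289.7 at 0 hr and 71.8, 113 and 103 at 3 hr in S80A cells. It is listed as falling in S80A cells, 2.93-fold, and was lower there at 3 hr (log2 difference -1.36 ± 0.26 (SE), adjusted p = 0.00575). Its response difference did not pass (-0.81 ± 0.32 (SE), adjusted p = 0.106) and did with the replicate block (adjusted p = 0.0432). SLC9A3R2 (NHERF2) had 126, 142 and 109 scaled reads at 0 hr and 47.0, 67.5 and 56.7 at 3 hr in wild-type cells, and 191, 199 and 212 at 0 hr and 41.5, 96.6 and 101 at 3 hr in S80A cells. It fell in both, was higher in S80A cells at 0 hr (log2 difference 0.68 ± 0.14 (SE), adjusted p = 0.0194) and overlapped between genotypes at 3 hr. SLC22A18AS fell in both tables, from 83.0 ± 7.81 (SD, n = 3) to 20.7 ± 4.98 and from 145 ± 30.5 to 28.2 ± 9.02, and its reads may not be told apart from those of SLC22A18.

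**Figure D4:**
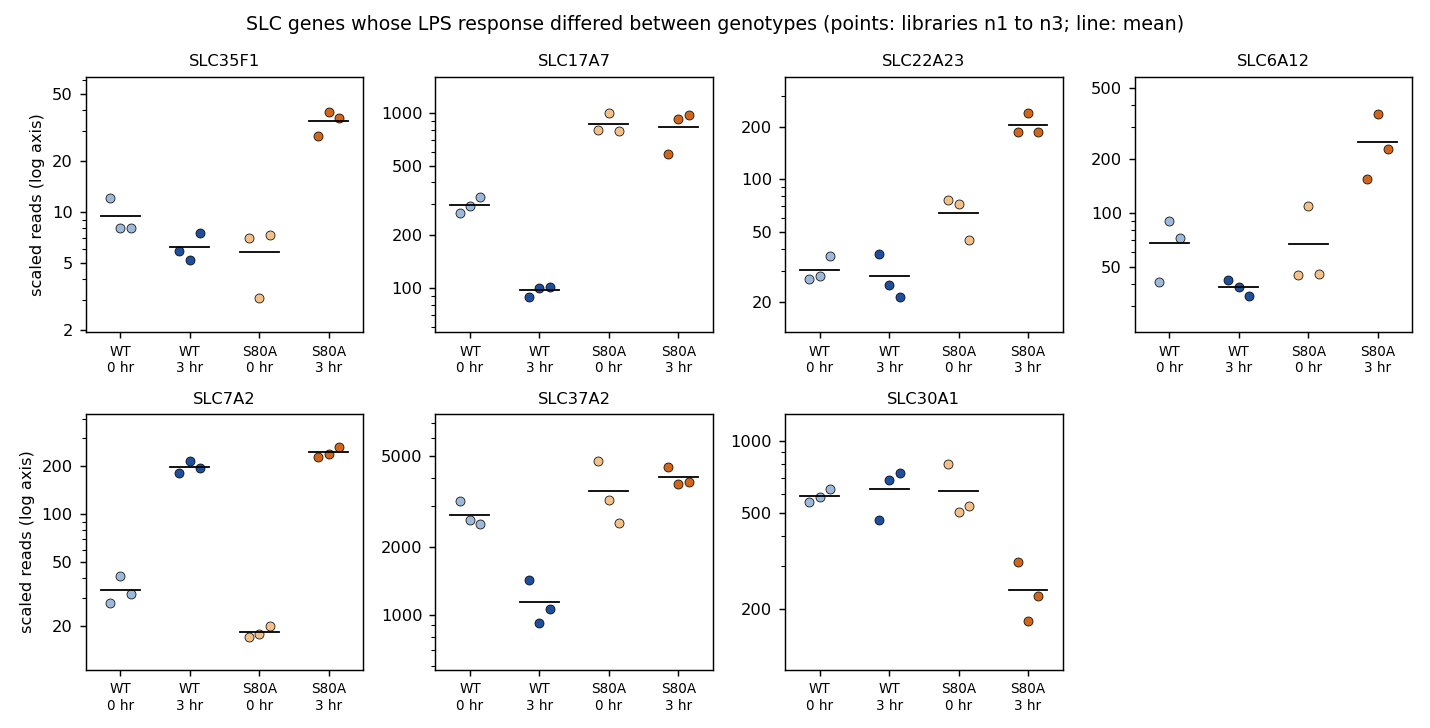
Scaled reads (log axis) of the 7 members whose LPS response differed between genotypes, in the 12 libraries, with points for the 3 libraries of each group in the order of their numbers and a line at each group mean. SLC35F1, SLC22A23 and SLC6A12 have higher S80A means at 3 hr than at 0 hr and lower wild-type ones, SLC17A7 and SLC37A2 have lower wild-type means at 3 hr and overlapping S80A libraries, SLC7A2 rises in both genotypes, and SLC30A1 is lower at 3 hr in S80A cells.

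The 7 response differences thus came in several forms. SLC35F1, SLC6A12 and SLC22A23 are listed as rising in S80A cells alone, SLC17A7 and SLC37A2 as falling in wild-type cells alone, SLC30A1 as falling in S80A cells alone, and SLC7A2 alone among them is listed in both tables. For 6 of the 7, then, the listing favoured a difference. Without S80A replicate 1 at both times, 17 members were called, 28.3% of members beside 24.5% of all listed genes. All 7 were among them, and the further 10 were SLC5A3, SLC7A7, SLC7A8, SLC13A3, SLC23A2, SLC25A45, SLC29A3, SLC38A7, SLC39A8 and SLC43A2. DESeq2 called 14 members (23.3%, beside 19.7% of all) and the replicate block 11 (18.3%, beside 18.9%). In a fit of the genes listed in both tables, 1 of 25 members, SLC7A2, was called (4%, beside 4.48%).

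**Figure D5:**
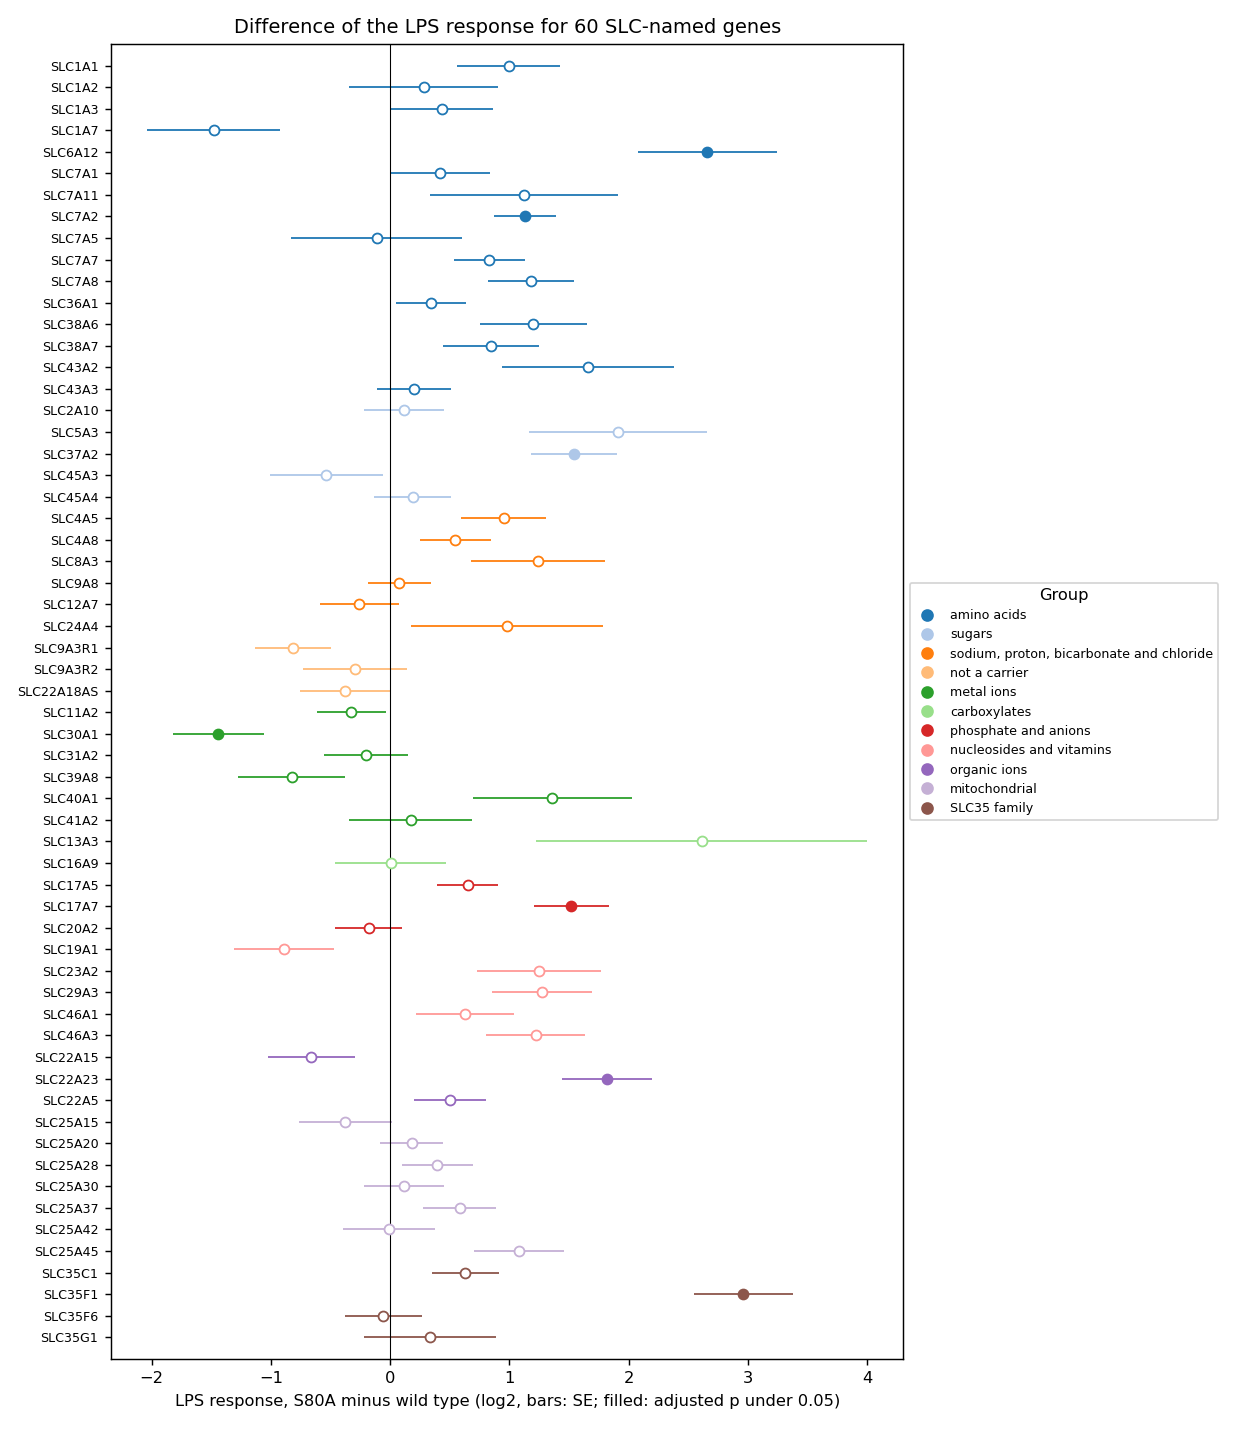
Difference of the LPS response between genotypes (S80A minus wild type, log2 scale, with bars of 1 SE from limma) for the 60 SLC-named genes, ordered and coloured by substrate group, with filled points for an adjusted p under 0.05. 43 of 60 lie right of 0. The 7 filled points are SLC6A12, SLC7A2, SLC37A2, SLC30A1, SLC17A7, SLC22A23 and SLC35F1.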

How the data were processed

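THP-1 cells of 2 genotypes were measured by stranded poly(A) RNA-seq (single-end reads of 75 bases, target 20 M, per the labels' protocols). Per the submitters' processing notes the tools were HTSeq, HISAT, DESeq2, StringTie, Cuffdiff and FastQC on GRCh38, with no versions and no roles. Annotation and strand setting of the counting: not given in the sources used here. By gene span in GENCODE, some members also overlap genes on their own strand. Among them are SLC7A2 (3 genes), SLC4A5, SLC5A3, SLC13A3, SLC39A8 and SLC45A4 (2 each) and SLC35F1 (1). How reads in such overlaps were counted is not known here. Each genotype has 1 table, deposited by the authors, with log2 fold changes, p-values and adjusted p-values of 3 hr over 0 hr, and a signal per library. In the deposited signal, reads had been divided by a size factor for each library (0.834 to 1.29), as 100% of values came out as whole reads to within 0.01. Rows are limited to genes past 2 cutoffs, an adjusted p-value below 0.01 and a log2 fold change beyond 1 in either direction, 2335 for wild-type and 2508 for S80A cells, 1562 of them in both, so the tests cover listed genes and not the transcriptome. A further 5 columns of the authors' means were not used.

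Genotype differences at 0 hr and 3 hr (6 libraries each) and of the LPS response (an interaction term, 12 libraries) were tested with limma 3.58.1 in R 4.3.3 on log2(scaled reads + 1) over all 3281 genes, two-sided, with Benjamini-Hochberg adjustment and a threshold of 0.05. A log2 difference on this scale understates changes of low genes. The test was also tried on simulated data without the LPS listing step, from which nothing is read here. LPS changes within a genotype are the authors' calls and, as folds, ratios of group means. Alternatives were pseudocounts of 0.5 and 5, a mean of at least 10 scaled reads, edgeR 4.0.16 with TMM or the authors' factors, DESeq2 1.42.0 (both on the recovered reads), a replicate block, a fit on all 12 libraries at each time, leaving out each library and, for the response, the genes of both tables. S80A replicate 1 was left out at both times as an alternative chosen after seeing the data. Deviations of same-numbered libraries from their group means correlated at 0.188, 0.245 and 0.259 between genotypes at 0 hr, and at 0.153 to 0.343 between 0 and 3 hr within a genotype, which pairs them there by the data and not by the labels. Between genotypes at 3 hr they were 0.064 to 0.196. The block is 1 term per number, shared by the genotypes.

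Members and lists were chosen with earlier results of these data known. Every member is named. Values in all 12 libraries are given for the 8 largest rises and falls among members with at least the median expression of members, the 6 smallest p-values in each direction at 0 hr and 3 hr, the 12 smallest for the response and members with 3 or fewer reads in a group at 0 hr. The lysosomal group was chosen after values were seen. Intervals for read ratios are exact 95% intervals.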

Additional observations from a re-analysis of the deposited data

Results flagged for a closer look

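The LPS response of 7 members differed between genotypes by limma's interaction term, S80A minus wild type on the log2 scale: SLC35F1 by 2.96, SLC6A12 by 2.66, SLC22A23 by 1.82, SLC37A2 by 1.54, SLC17A7 by 1.52, SLC7A2 by 1.13 and SLC30A1 by -1.44 (adjusted p = 0.00211 to 0.0304). Of these 7, all but SLC7A2 are listed in 1 table alone, a selection that favours such a difference, and SLC7A2 was also called among the genes listed in both tables. All 7 passed with edgeR under both scalings and with DESeq2. When a library was left out, SLC30A1 did not pass in 7 of 12 fits (adjusted p = 0.056 to 0.0752) and SLC37A2 in 1 of 12 (adjusted p = 0.0514), and the other 5 passed in all 12.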

How the results depend on the processing

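Counts of members called moved with the libraries used. At 0 hr 23 members were called, and 4 to 24 when a library was left out, and SLC4A8, SLC7A8, SLC17A7 and SLC23A2 were called in every such fit. At 3 hr 25 were called, and 22 to 31. The response count of 7 (14.1% of all listed genes) became 14 with DESeq2 (19.7% of all), 11 with the replicate block (18.9%), 1 among the genes listed in both tables (4.48%), 17 without S80A replicate 1 at both times (24.5%) and 6 to 14 when a library was left out, with 14 without S80A replicate 1 at 3 hr (20.2%). Of the 41 members listed for wild-type cells and the 44 for S80A cells, 10 and 17 changed by over 2 on the log2 scale in the authors' deposited tables, and 38 to 41 and 39 to 42 kept a change of over 1 when a library was left out. Over 913 alternatives for 60 results on single genes, 753 stayed on their side of the threshold, 142 no longer passed (114 of them at 0 hr), 18 newly passed and 0 reversed. With the block 20 members were called at 0 hr and 24 at 3 hr, where SLC38A6 and SLC45A3 no longer passed and SLC13A3 did. Over all 18 same-number pairs of groups, the correlations of the deviations were 0.00318 to 0.343, and 13 were over 0.1, and the best match was the own number in 30 of 36 comparisons, a hint from the data only. The cause of these changes was not tested. Depth limits SLC1A2, SLC1A7 and SLC8A3, with 3 or fewer reads in a group.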

Other observations

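Members known from lysosomal membranes (SLC17A5, SLC29A3, SLC36A1, SLC38A7 and SLC46A3) are a list chosen after their values were seen. The list was therefore not tested as a group, and nothing is read from its counts. All 5 had lower means after LPS in both genotypes, with a median log2 change of -1.65 in wild-type cells and of -0.72 in S80A cells. All 5 are listed as falling in wild-type cells, so the wild-type direction was fixed by the listing. SLC31A2, a carrier of intracellular vesicles, rose in both tables and is not on the list. At 3 hr 4 of the 5 were called higher in S80A cells, with limma (29.2% of all listed genes were) and with TMM (25.7%), and the 5 response differences were all positive, with a median of 0.85. All but SLC29A3 are listed as falling in wild-type cells alone, a selection that favours a positive difference.

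Among the genes around SLC15-type peptide sensing, which were fixed as a list although no SLC15 gene is a member, 3 of 5 were listed. NOD2, the sensor of muramyl dipeptide, was lower in S80A cells at both times. Its log2 difference was -2.1 at 0 hr and -1.18 at 3 hr (limma, adjusted p = 0.0107 and 0.0141). Its means at 3 hr were 659 ± 99.4 (SD, n = 3) in wild-type and 298 ± 98.6 scaled reads in S80A cells. CXorf21, also named TASL, the adaptor of a lysosomal SLC15 carrier, was lower as well (-1.52 and -2.02, adjusted p = 0.00504 and 0.00448). Neither response difference passed (adjusted p = 0.183 and 0.433). RIPK2, the kinase that NOD2 signals through, was higher at 3 hr (1.33, adjusted p = 0.0093) and did not pass at 0 hr (adjusted p = 0.332). The response difference of RIPK2 did not pass with limma (1.11, adjusted p = 0.0563) and passed with TMM (adjusted p = 0.0423). Of all listed genes, 10.6% were called lower at 0 hr, 17.7% lower at 3 hr and 29.2% higher at 3 hr. Of adenosine genes, 3 of 5 were listed. The response of ADORA3, an adenosine receptor, differed between genotypes (2.61, adjusted p = 0.0151, limma), as it did for 14.1% of all listed genes. ADA was lower in S80A cells at 3 hr (-1.54, adjusted p = 0.0037), and no difference of ADORA2A passed. Of amino acid response genes, 2 of 9 were listed. ATF3 was higher in S80A cells at 0 hr (2.47, adjusted p = 0.0123) and 3 hr (0.834, adjusted p = 0.0499, or 0.0522 with TMM), and no difference of SESN2 passed. The response difference of ATF3 did not pass with limma (-1.64, adjusted p = 0.058) and passed with TMM (-1.72, adjusted p = 0.026).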
